A study of Arabidopsis thaliana with 14 samples.

Results

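The vegetative abscisic acid and cold genes described here were 7 Arabidopsis genes, each read by 1 probe set: LTI30 (AT3G50970), COR47 (AT1G20440), COR15B (AT2G42530), HIS1-3 (AT2G18050), ALDH7B4 (AT1G54100), DI21 (AT4G15910) and XERICO (AT2G04240). The genes were chosen by name, with earlier results of these data known. They are 7 of 15922 probe sets that passed a filter on low signals, and all 7 passed it. Whole wild-type Col-0 seedlings, grown on agar and then kept in liquid medium, received 50 µM of 1 of 2 compounds on day 6 after germination, and RNA was hybridised to Affymetrix ATH1 arrays. The compounds are known here only by the codes 7606596 and 5929745. The 14 arrays form 7 groups of 2: 7606596 at 3 h and at 12 h, 5929745 at 3 h and at 12 h, and seedlings without chemical at 0 h, 3 h and 12 h, the first of these collected before the chemicals were added. Whether a solvent was given to the untreated seedlings is not stated in the labels. They describe 2 independent sets of arrays without saying how the cultures were separated, so p-values measure the spread between arrays that may be technical.

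Abscisic acid is the plant hormone made when water is short. Bound to its receptors it blocks a group of protein phosphatases, which frees protein kinases that activate bZIP transcription factors, and these act on the promoters of protective genes in leaves and roots as well as in seeds. Cold and drought reach many of the same genes through a second family of factors that bind the dehydration-responsive element. The products include dehydrins, which are water-soluble proteins that shield membranes and other proteins, together with chloroplast-protecting proteins, detoxifying enzymes and a linker histone. No sequence of the members is shown.

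Values are MAS5 signals, linear intensities scaled by the authors on each array, and log2 changes are fitted differences of log2(signal + 16) ± standard error, tested with limma. A call means an adjusted p (Benjamini-Hochberg over the 15922 probe sets) under 0.05. Median signals were 151.9 to 168.6 over the arrays. Poly-A spike-ins, transcripts added to the RNA before labelling, had a mean log2 signal of 4.67 to 5.25 on the 8 treated arrays and the 2 of 0 h, against 6.47 to 6.605 on the 4 arrays without chemical at 3 h and 12 h. Setting either compound against its untreated time point crosses that difference, and it cannot be told apart from the treatment in this design. The comparisons between the compounds crossed a difference of -0.03 at 3 h and 0.21 at 12 h. Hybridisation controls, a second kind of control probe set, differed in mean log2 signal by 0.41 for either compound against untreated seedlings at 12 h. In untreated seedlings they differed by -0.72 for 12 h against 0 h. The 25S rRNA control probe set had 531 and 466 with 7606596 at 3 h and 850 and 760 with 5929745 at 3 h. Untreated seedlings of 3 h had 277 and 212 for it. At 12 h it had 409 and 320 with 7606596, 290 and 338 with 5929745, and 206 and 184 in untreated seedlings. The part of this control in the members' values was not tested. Of the marker lists for green shoot, root and dry seed, with 8 genes each, 1, 0 and 0 genes had a named probe set. That gene was RCA, the activase of the carbon-fixing enzyme, with 19188 to 36165 on all arrays, so the green tissue of the label was measured by 1 marker. RCA was called lower at 12 h than at 0 h in untreated seedlings (-0.74), with 7606596 (-0.86) and with 5929745 (-0.72). In these comparisons 15.2%, 12.4% and 12.5% of all probe sets were called lower. In whole seedlings, fewer cells of a type and less RNA per cell cannot be told apart.

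LTI30, a dehydrin gene, was called higher with 7606596 than in untreated seedlings of the same time at 3 h and 12 h. The 12 h call was lost in several alternative fits. Against 0 h, LTI30 was higher by 1.03 with 7606596 at 3 h, and by 0.39, uncalled, at 12 h. COR47, another dehydrin gene, was the only other member called against untreated seedlings of the same time. After 3 h of 7606596, 2 of the 7 genes were called higher and 0 lower, where 3.09% of all probe sets were called higher and 5.02% in either direction. Because the genes were chosen with earlier results of these data known, counts beside such shares are descriptions only. After 12 h of 7606596, LTI30 alone was called, against a background of 1.54% in either direction. With 5929745, 0 of 7 were called at 3 h (background 1.15%) and 0 of 7 at 12 h (background 1.4%) in limma, although 2 and 1 members had an unadjusted p under 0.05, as did 15.7% and 15.2% of all probe sets. Between the compounds, LTI30 was called higher with 7606596 at 3 h (background 0.917%), and 0 of 7 were called at 12 h (background 0.848%), 1 with an unadjusted p under 0.05, like 8.32% of all probe sets. The median log2 change of the 7 genes against untreated seedlings was -0.0040 with 7606596 at 3 h and 0.29 at 12 h, and 0.11 with 5929745 at 3 h and 0.11 at 12 h. Over all probe sets these medians were -0.017, -0.019, -0.0070 and -0.011.

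**Figure D1:**
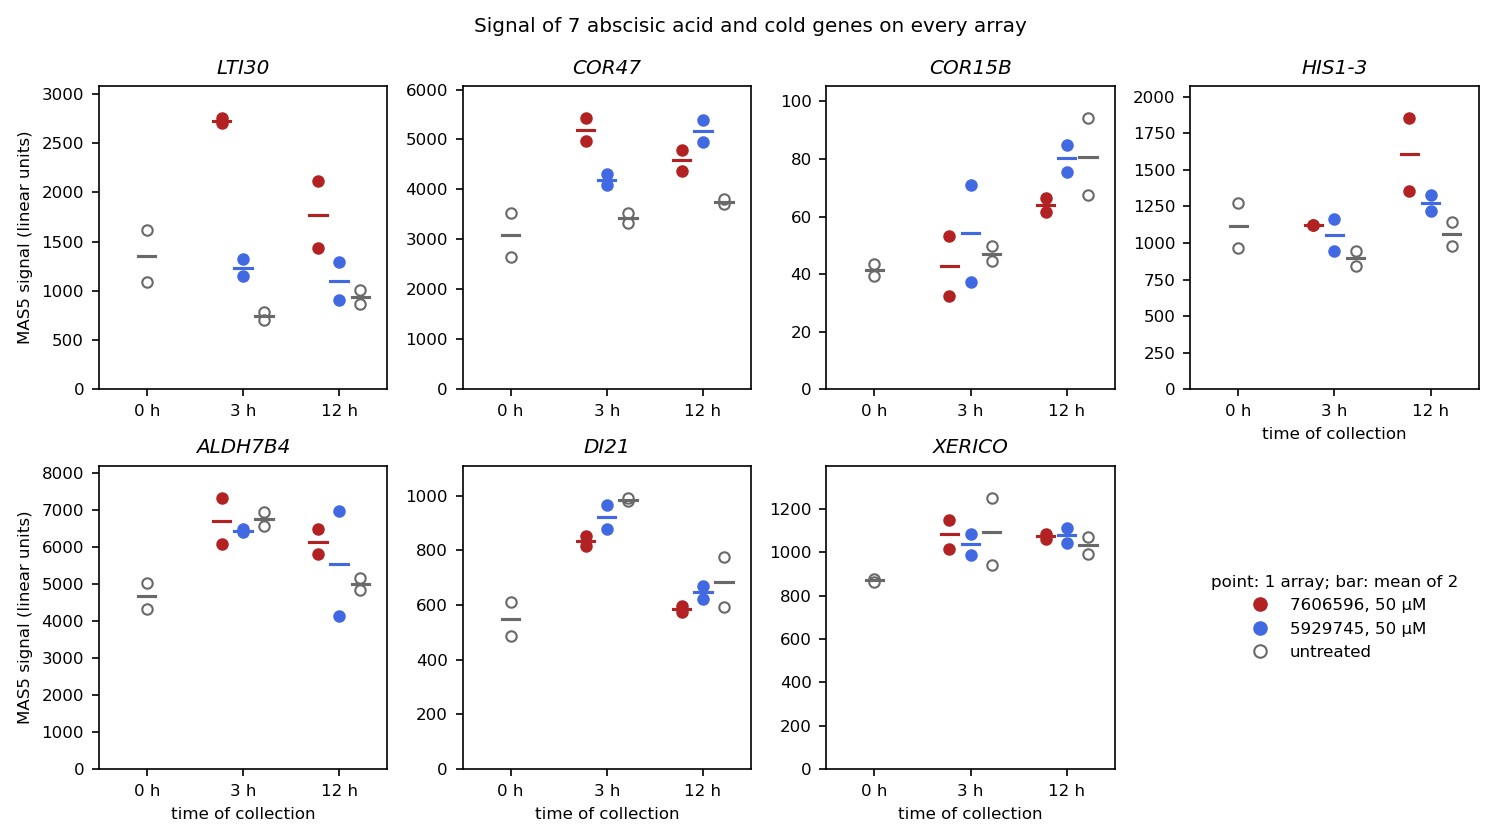
MAS5 signal of each member (vertical axis, linear scale) at 0 h, 3 h and 12 h for 7606596, 5929745 and untreated seedlings, where a point is 1 array and a bar is the mean of 2 arrays. LTI30 has its highest arrays with 7606596 at 3 h (2752 and 2708), whereas DI21 is highest at 3 h in every treatment.

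LTI30 encodes a low-temperature-induced dehydrin that binds membranes. Its signal was 2752 and 2708 with 7606596 at 3 h and 2113 and 1434 at 12 h. With 5929745 it was 1324 and 1146 at 3 h and 904 and 1288 at 12 h. In untreated seedlings it was 1089 and 1618 at 0 h, 787 and 703 at 3 h and 866 and 1008 at 12 h. Both 7606596 arrays of 3 h lay above all other arrays, and both untreated arrays of 3 h lay below all others. How many of all probe sets had such separations was not counted. The groups in between, from 7606596 at 12 h down to untreated at 12 h, overlapped each with the next in the order of their means.

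Against untreated seedlings, LTI30 rose with 7606596 at 3 h by 1.85 ± 0.19 on the log2 scale (limma, adjusted p = 7.47e-06), a ratio of group means of 3.67. With any single array left out this change lay between 1.77 and 1.93 and was called each time. At 12 h the rise was 0.89 ± 0.19 (adjusted p = 0.0247). That call was lost without 7606596 12 h replicate 1 (0.61, adjusted p = 0.365), without untreated 12 h replicate 1 (0.78, adjusted p = 0.297) and without untreated 12 h replicate 2 (0.995, adjusted p = 0.0682), and also with no filter (adjusted p = 0.0849) and with no variance trend (adjusted p = 0.144).

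With 5929745 the LTI30 arrays of 3 h both lay above the untreated arrays of 3 h, as in 22.1% of all probe sets, and the difference of 0.72 ± 0.19 did not pass (adjusted p = 0.0749). It passed when 1 of 3 arrays outside the comparison was left out, namely 7606596 12 h replicate 2 (adjusted p = 0.0496), 5929745 12 h replicate 1 (adjusted p = 0.0483) or 5929745 12 h replicate 2 (adjusted p = 0.0486). Without 1 of the 4 arrays compared it was 0.61 to 0.82 and did not pass (adjusted p = 0.156 to 0.295). At 12 h the arrays overlapped, and the difference was 0.21 ± 0.19 (adjusted p = 0.662).

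The compounds were set against each other at the same dose and time. At 3 h LTI30 was higher with 7606596 than with 5929745 by 1.14 ± 0.19 (95% interval 0.73 to 1.54, adjusted p = 0.00322). In that comparison poly-A signals differed by -0.03, and the 25S rRNA control was lower on the 7606596 arrays. The call was lost without 5929745 3 h replicate 2 (1.04, adjusted p = 0.0868) and with no variance trend (adjusted p = 0.0641). At 12 h the difference was 0.68 ± 0.19 (95% interval 0.28 to 1.09, adjusted p = 0.148), and it ran from 0.40 without 7606596 12 h replicate 1 (adjusted p = 0.962) to 0.96 without replicate 2 of that group (adjusted p = 0.032). The change of the 7606596 effect from 3 h to 12 h was -0.97 ± 0.27 and did not pass as an interaction (adjusted p = 0.172). No member passed any of the 3 interactions, for which 0.132%, 0.113% and 0.0502% of all probe sets were called.

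**Figure D2:**
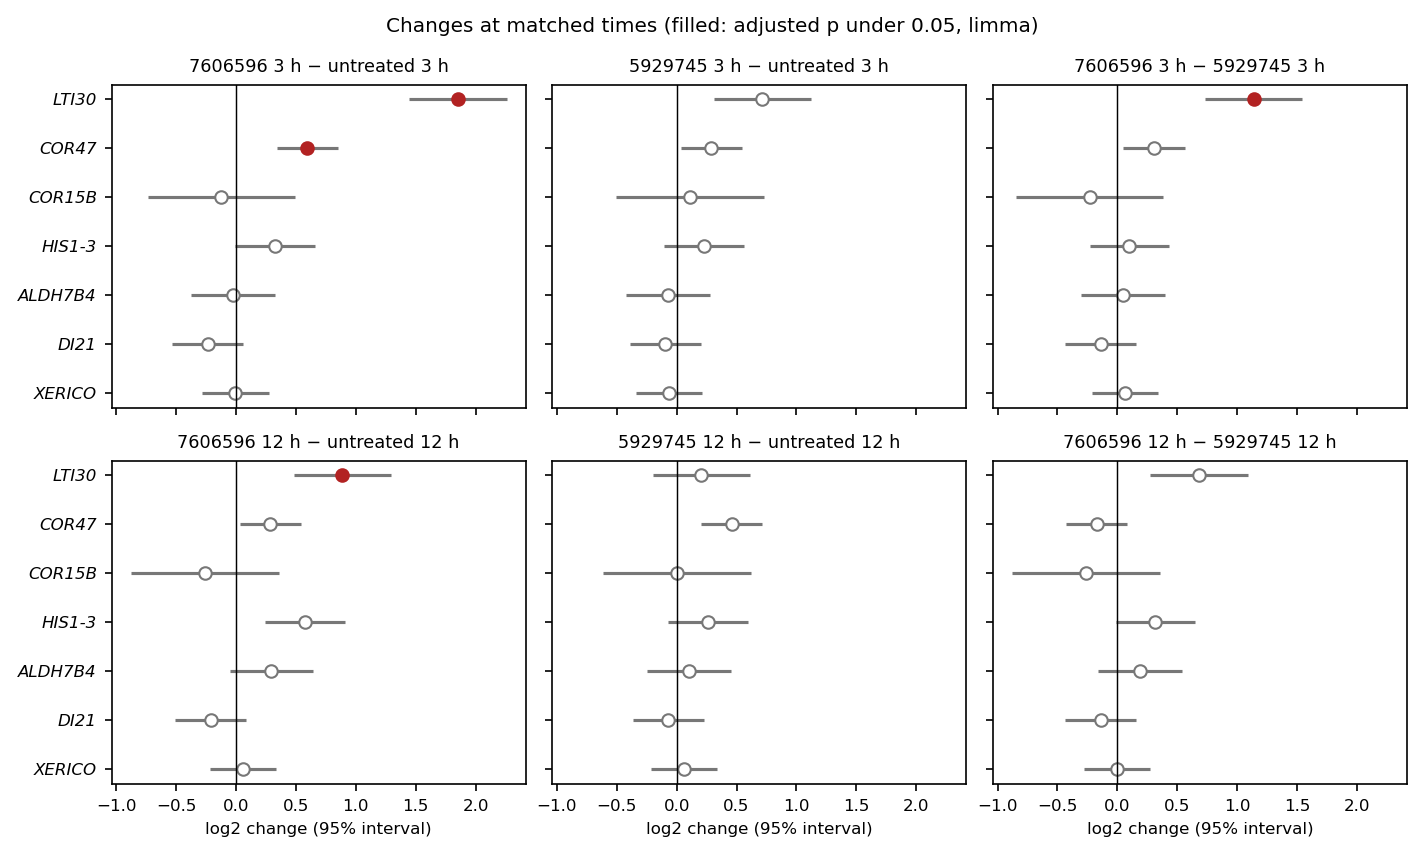
Log2 change of each member (points, with 95% intervals) for each compound against untreated seedlings of the same time and for 7606596 against 5929745, at 3 h and 12 h, with filled points at an adjusted p under 0.05. LTI30 is filled in 3 panels and COR47 in 1, while all intervals of XERICO cross 0.

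COR47 encodes an acidic dehydrin of the cytosol and nucleus. Its signal was 4962 and 5420 with 7606596 at 3 h and 4377 and 4799 at 12 h. Seedlings given 5929745 had 4086 and 4304 at 3 h and 4950 and 5398 at 12 h. Untreated seedlings had 2646 and 3526 at 0 h, 3331 and 3523 at 3 h and 3707 and 3803 at 12 h. All 8 treated arrays lay above all 6 untreated arrays, as they did in 0.22% of all probe sets, and COR47 was the only member of the 7 with this separation.

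COR47 was called against untreated seedlings with 7606596 at 3 h, with a rise of 0.60 ± 0.12 (limma, adjusted p = 0.00723). The call was lost without 7606596 3 h replicate 2 (0.53, adjusted p = 0.093) and without untreated 3 h replicate 1 (0.56, adjusted p = 0.0712). The other differences were 0.29 ± 0.12 with 7606596 at 12 h (adjusted p = 0.303), 0.29 ± 0.12 with 5929745 at 3 h (adjusted p = 0.25) and 0.46 ± 0.12 with 5929745 at 12 h (adjusted p = 0.0676). The last of these passed when either 0 h array was left out (adjusted p = 0.0394 and 0.0395) and did not when 1 of the 4 arrays compared was (0.40 to 0.52, adjusted p = 0.0763 to 0.357). Between the compounds, COR47 was higher on the 7606596 arrays at 3 h (0.31, 95% interval 0.05 to 0.56, adjusted p = 0.418) and higher on the 5929745 arrays at 12 h (-0.17, 95% interval -0.43 to 0.08, adjusted p = 0.799). Neither difference was called, and the interaction between compound and time was -0.48 ± 0.17 (adjusted p = 0.624).

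COR15B encodes a small protein of the chloroplast stroma that protects membranes during freezing, and it was the dimmest member, with a mean signal of 58.7 over the arrays against the filter at 42.3. Its signal was 32.5 and 53.3 with 7606596 at 3 h and 61.7 and 66.5 at 12 h. On the 5929745 arrays it was 71.0 and 37.3 at 3 h and 85.0 and 75.5 at 12 h. Untreated seedlings had 39.2 and 43.5 at 0 h, 49.7 and 44.5 at 3 h and 94.1 and 67.6 at 12 h. The highest group means were those of untreated seedlings and of 5929745 at 12 h, whose arrays overlapped each other. The arrays of 3 h overlapped among all 3 treatments. COR15B was called in none of the 15 comparisons in limma, and its differences from untreated seedlings of the same time lay between -0.26 and 0.11, each ± 0.29. It had an unadjusted p under 0.05 for untreated seedlings at 12 h against 0 h (0.74, adjusted p = 0.0577) and for 5929745 at 12 h against 0 h (0.75, adjusted p = 0.0646). The first of these passed without 5929745 3 h replicate 1 or 2 (adjusted p = 0.0498 and 0.0462) and when the offset was 64 (0.45, adjusted p = 0.0475), and both passed with no variance trend (adjusted p = 0.0277 and 0.0321).

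HIS1-3 encodes the linker histone variant of Arabidopsis that is known to accumulate in drought and with abscisic acid. Its signal was 1122 and 1125 with 7606596 at 3 h and 1851 and 1359 at 12 h. The 5929745 arrays had 943 and 1162 at 3 h and 1215 and 1325 at 12 h. In untreated seedlings it was 964 and 1272 at 0 h, 841 and 947 at 3 h and 977 and 1143 at 12 h. Both 7606596 arrays of 12 h lay above all others, one of them narrowly, and the groups from the third to the seventh mean overlapped each with the next. The share of all probe sets with such a separation was not counted.

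HIS1-3 did not pass against untreated seedlings in either compound or time. With 7606596 the difference was 0.33 ± 0.16 at 3 h (limma, adjusted p = 0.258) and 0.58 ± 0.16 at 12 h (adjusted p = 0.08). The value of 12 h passed without 7606596 12 h replicate 2 (0.80, adjusted p = 0.0234) and was 0.36 without replicate 1 of that group (adjusted p = 0.593). With 5929745 the difference was 0.23 ± 0.16 at 3 h (adjusted p = 0.523) and 0.26 ± 0.16 at 12 h (adjusted p = 0.465). Within 7606596, HIS1-3 was higher at 12 h than at 3 h by 0.49 ± 0.16 (adjusted p = 0.0277), where 26.5% of all probe sets were called. That call was lost without any one of 7606596 3 h replicate 1 (0.49, adjusted p = 0.103), 3 h replicate 2 (0.49, adjusted p = 0.106) and 12 h replicate 1 (0.27, adjusted p = 0.319), with no filter (adjusted p = 0.0532) and with no variance trend (adjusted p = 0.0731).

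ALDH7B4 encodes a stress-inducible aldehyde dehydrogenase that oxidises reactive aldehydes. Its signal was 6078 and 7327 with 7606596 at 3 h and 6488 and 5817 at 12 h. Under 5929745 it was 6486 and 6424 at 3 h and 4144 and 6976 at 12 h. Untreated seedlings had 5038 and 4328 at 0 h, 6586 and 6968 at 3 h and 4841 and 5161 at 12 h. The pair of 5929745 arrays of 12 h spanned most of the range of all arrays, and every group overlapped the next in the order of their means. Against untreated seedlings of the same time its differences were -0.02 with 7606596 at 3 h, 0.30 with 7606596 at 12 h, -0.07 with 5929745 at 3 h and 0.11 with 5929745 at 12 h, each ± 0.17, with adjusted p values of 0.963, 0.464, 0.883 and 0.821 in limma. Several uncalled values of ALDH7B4 passed once a 5929745 array of 12 h was left out. Without replicates 1 and 2 of that group, the difference from 0 h passed with 7606596 at 3 h (0.51, adjusted p = 0.00573 and 0.0058), with 7606596 at 12 h (0.39, adjusted p = 0.0116 and 0.0117) and with 5929745 at 3 h (0.47, adjusted p = 0.0103 and 0.0104), as did that of untreated seedlings between 12 h and 3 h (-0.44, adjusted p = 0.00507 and 0.00512). Without 1 of their own 4 arrays these 4 values did not pass (adjusted p = 0.0818 to 0.456). With 5929745 at 12 h the difference from 0 h was 0.58 without replicate 1 (adjusted p = 0.00454) and -0.17 without replicate 2 (adjusted p = 0.408). That from 3 h was 0.11 without replicate 1 (adjusted p = 0.629) and -0.64 without replicate 2 (adjusted p = 0.0025).

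DI21 encodes a drought-induced protein of the late embryogenesis abundant group. Its signal was 816 and 853 with 7606596 at 3 h and 574 and 595 at 12 h. With 5929745 it was 878 and 964 at 3 h and 621 and 670 at 12 h. In untreated seedlings it was 485 and 612 at 0 h, 979 and 990 at 3 h and 592 and 776 at 12 h. All 6 arrays of 3 h lay above the 8 arrays of 0 h and 12 h, as they did in 2.41% of all probe sets. At 3 h the untreated arrays were above those of both compounds without overlap, like 26.8% and 24.4% of all probe sets, by differences that did not pass: -0.23 ± 0.14 with 7606596 (limma, adjusted p = 0.378) and -0.10 ± 0.14 with 5929745 (adjusted p = 0.794).

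XERICO encodes a RING-type protein whose overexpression is known to raise abscisic acid in Arabidopsis. Its signal was 1015 and 1150 with 7606596 at 3 h and 1085 and 1062 at 12 h. With 5929745 it was 989 and 1083 at 3 h and 1041 and 1113 at 12 h. Untreated seedlings had 878 and 864 at 0 h, 940 and 1248 at 3 h and 1070 and 993 at 12 h. The 0 h arrays lay below all others, a separation whose share over all probe sets was not counted, and the remaining groups overlapped each with the next. Among the members its group means had the narrowest range, with a ratio of 1.26 between the highest and the lowest, against 3.67 for LTI30. XERICO was called in none of the 15 comparisons in limma, although untreated seedlings at 3 h against 0 h passed without untreated 3 h replicate 1 (0.51, adjusted p = 0.0377) and was 0.11 without replicate 2 of that group (adjusted p = 0.711). Its differences between the compounds were 0.06 at 3 h (95% interval -0.22 to 0.34) and -0.0045 at 12 h (95% interval -0.28 to 0.27).

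Over time in untreated seedlings, 2 of the 7 genes were higher and 1 was lower at 3 h than at 0 h, where 6.66% and 5.4% of all probe sets were called higher and lower, 12.1% together. DI21 rose by 0.84 ± 0.14 (limma, adjusted p = 0.000827), ALDH7B4 rose by 0.54 ± 0.17 (adjusted p = 0.0431) and LTI30 fell by 0.82 on the log2 scale, ± 0.19 (adjusted p = 0.00947). The poly-A signals of these groups differed by 1.77 in the same comparison, and their part in these values was not tested. The LTI30 call was lost without untreated 0 h replicate 2 (-0.54, adjusted p = 0.153) and without untreated 3 h replicate 2 (-0.74, adjusted p = 0.0742), and with no variance trend (adjusted p = 0.05002). The ALDH7B4 call was lost without any one of the 4 arrays compared: it was 0.64 and 0.43 without 0 h replicates 1 and 2 (adjusted p = 0.0804 and 0.25), and 0.58 and 0.50 without 3 h replicates 1 and 2 (adjusted p = 0.119 and 0.176). It was also lost without either 5929745 array of 3 h (adjusted p = 0.0555 both times) or either untreated array of 12 h (adjusted p = 0.0563 both times), with no filter (adjusted p = 0.101) and with no variance trend (adjusted p = 0.129).

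At 12 h against 0 h, 0 of the 7 genes were called in untreated seedlings, where 35.1% of all probe sets were, and 4 of the 7 had an unadjusted p under 0.05 in limma, as did 43.8% of all probe sets. LTI30 (-0.50, adjusted p = 0.0523) passed without 0 h replicate 1 (-0.78, adjusted p = 0.0118) and without any of the 4 treated arrays of 12 h (adjusted p = 0.0319 to 0.034), and was -0.22 without 0 h replicate 2 (adjusted p = 0.504). COR47 passed without 0 h replicate 2 (0.50, adjusted p = 0.0072) and was 0.09 without replicate 1 (adjusted p = 0.651). DI21 passed without 0 h replicate 2 (0.47, adjusted p = 0.0417) or 12 h replicate 1 (0.50, adjusted p = 0.0319). It was 0.15 without 0 h replicate 1 (adjusted p = 0.56) and 0.12 without 12 h replicate 2 (adjusted p = 0.643). At 12 h against 3 h in untreated seedlings DI21 was the only member called, among 34.2% of all probe sets, and fell by 0.53 on the log2 scale, ± 0.14 (adjusted p = 0.00722), a call lost without untreated 12 h replicate 1 (-0.34, adjusted p = 0.148). The same comparison crossed a poly-A difference of -0.04 and a difference of -0.49 in the hybridisation controls. At 12 h against 3 h with 7606596 and 5929745, poly-A signals differed by -0.16 and -0.40, and hybridisation controls by -0.015 and -0.016. The part of these differences in the members' values was not tested. DI21 also fell at 12 h against 3 h with 7606596, by 0.50 ± 0.14 (adjusted p = 0.0124), and with 5929745, by 0.50 ± 0.14 (adjusted p = 0.0134; 25.4% of all probe sets called). Those calls were lost without replicate 2 of 3 h or replicate 1 of 12 h of the compound in question (-0.47 and -0.48 with 7606596, adjusted p = 0.0812 and 0.0654, and -0.43 and -0.45 with 5929745, adjusted p = 0.109 and 0.0797). LTI30 fell at 12 h against 3 h with 7606596, by 0.64 ± 0.19 (adjusted p = 0.0185), a call lost without 3 h replicate 1 (-0.63, adjusted p = 0.0825), 3 h replicate 2 (-0.66, adjusted p = 0.0766), 12 h replicate 2 (-0.37, adjusted p = 0.271) or the variance trend (adjusted p = 0.065). COR47 with 5929745 at 12 h against 3 h (0.30 ± 0.12, adjusted p = 0.08) passed without either 0 h array (adjusted p = 0.0425 and 0.0428), and did not without 1 of the 4 arrays compared (0.24 to 0.36, adjusted p = 0.0959 to 0.284).

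**Figure D3:**
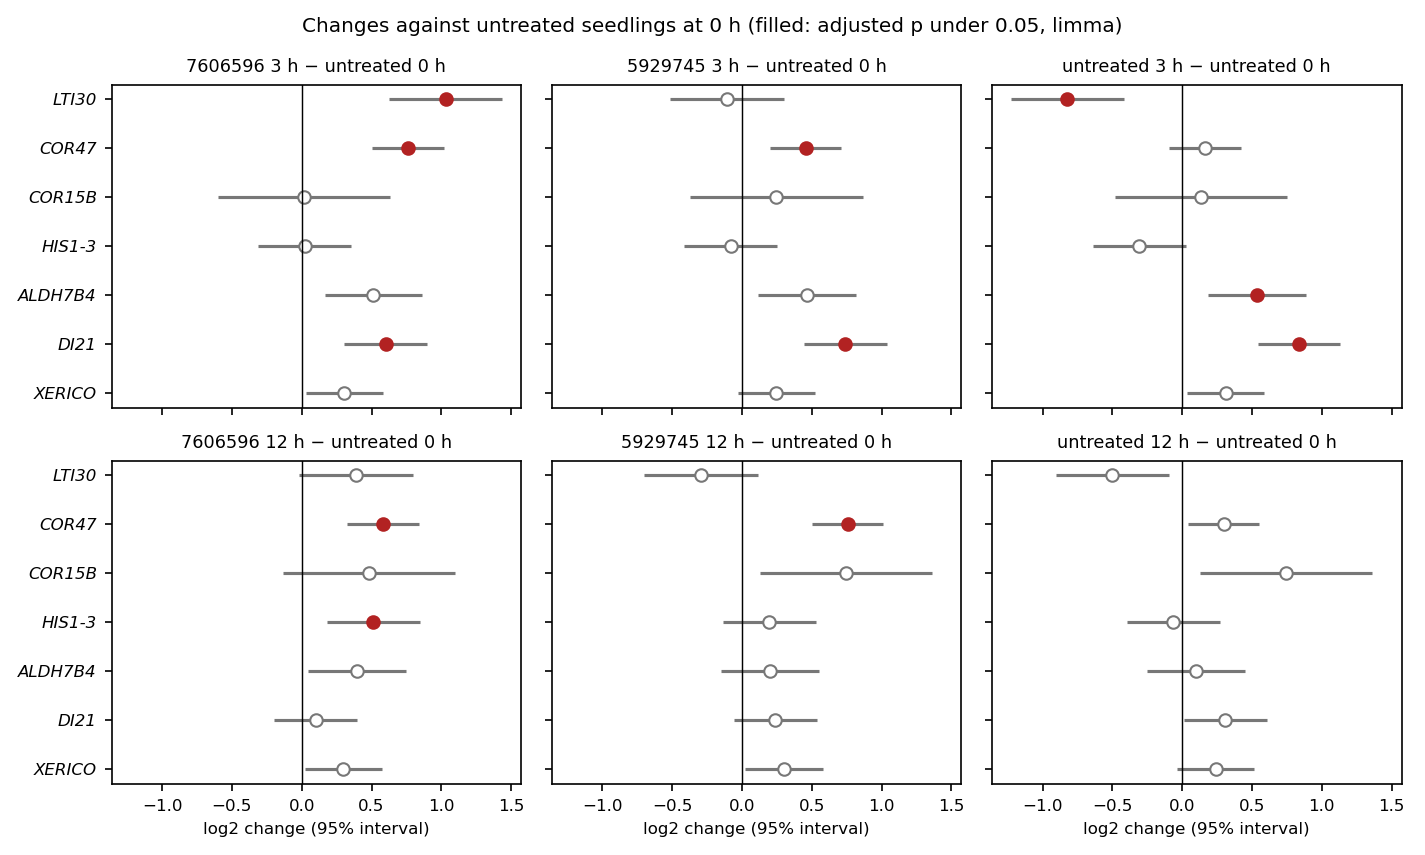
Log2 change of each member (points, with 95% intervals) for every later group against untreated seedlings at 0 h, with filled points at an adjusted p under 0.05. COR47 is filled in the 4 panels of treated groups and in neither untreated panel, and DI21 is filled in all 3 panels of 3 h. All 6 panels share the 2 arrays of 0 h.

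Against the shared 0 h arrays, 3 of the 7 genes were higher with 7606596 at 3 h (4.99% of all probe sets called higher, 7.66% in either direction), 2 with 7606596 at 12 h (16.3% and 28.7%), 2 with 5929745 at 3 h (5.55% and 9.68%) and 1 with 5929745 at 12 h (17.1% and 29.5%), and 0 were lower. Poly-A signals differed by 0.30, 0.14, 0.33 and -0.07 in these comparisons. For untreated seedlings at 3 h and 12 h against 0 h they differed by 1.77 and 1.73. The part of these differences in the members' values was not tested. COR47 was higher in all 4 treated groups, by 0.76 ± 0.12 and 0.58 ± 0.12 with 7606596 at 3 h and 12 h (limma, adjusted p = 0.000425 and 0.00122), and by 0.46 ± 0.12 and 0.76 ± 0.12 with 5929745 (adjusted p = 0.0222 and 9.98e-05). In untreated seedlings its difference from 0 h was 0.16 ± 0.12 at 3 h (adjusted p = 0.431) and 0.30 ± 0.12 at 12 h (adjusted p = 0.0677). The call with 5929745 at 3 h was lost without 0 h replicate 1 (0.25, adjusted p = 0.318), 5929745 3 h replicate 1 (0.49, adjusted p = 0.0743), 5929745 3 h replicate 2 (0.42, adjusted p = 0.156) or the variance trend (adjusted p = 0.0835).

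LTI30 was higher with 7606596 at 3 h than at 0 h by 1.03 ± 0.19 (limma, adjusted p = 0.00184), and this was 0.75 without 0 h replicate 1 (adjusted p = 0.0623). With 5929745 at 3 h its difference from 0 h was -0.11 ± 0.19 (adjusted p = 0.818). With 7606596 at 12 h it was 0.39 ± 0.19 (adjusted p = 0.152), and passed without 0 h replicate 2 (0.67, adjusted p = 0.0352) or 7606596 12 h replicate 2 (0.66, adjusted p = 0.0322). Without 0 h replicate 1 it was 0.10 (adjusted p = 0.786), and without 7606596 12 h replicate 1 it was 0.11 (adjusted p = 0.777). DI21 was higher than at 0 h with 7606596 at 3 h (0.60 ± 0.14, adjusted p = 0.0105) and with 5929745 at 3 h (0.74 ± 0.14, adjusted p = 0.00194), beside the 0.84 of untreated seedlings. The first of these was lost without 0 h replicate 1 (0.44, adjusted p = 0.171) and without 7606596 3 h replicate 2 (0.57, adjusted p = 0.0994). HIS1-3 was higher than at 0 h with 7606596 at 12 h (0.51 ± 0.16, adjusted p = 0.0207), which was lost without 0 h replicate 1 (0.31, adjusted p = 0.249), 7606596 12 h replicate 1 (0.29, adjusted p = 0.276) or the variance trend (adjusted p = 0.0595).

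The members did not share 1 profile over the arrays. Pearson's r between pairs of members over the 14 arrays ran from -0.45 (HIS1-3 and DI21) to 0.60 (ALDH7B4 and DI21), and that of the 2 dehydrins was 0.54. These are descriptions of arrays that share groups, as are the following likenesses, taken over 5976 probe sets of a single gene. The profiles most like LTI30 were those of AT1G19020 (r = 0.93) and AT1G70790 (r = 0.90), and most like COR47 were UGT84A3, a glucosyltransferase gene (r = 0.86), and AT4G12590 (r = 0.85). AT1G19020 had 2037 and 1963 with 7606596 at 3 h, against 303 and 267 in untreated seedlings of 3 h, and AT1G70790 had 398 and 405 against 212 and 243. As for LTI30, both arrays of 7606596 at 3 h were above all other arrays in AT1G19020 and AT1G70790. These genes were picked for their likeness to LTI30 over the same arrays, so this shared separation is no separate finding.

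DI21 was most like AT1G72160 and AT2G31730 (r = 0.94 each), and AT2G31730 had 458 and 372 with 7606596 at 3 h, 421 and 459 with 5929745 at 3 h and 424 and 492 in untreated seedlings of 3 h, against 193 and 251 at 0 h. COR15B was most like AT5G61970 (r = 0.89) and ATSIK (r = 0.88), HIS1-3 most like AT2G17760 (r = 0.90) and AT5G42670 (r = 0.89), ALDH7B4 most like AT3G45260 (r = 0.85) and AT3G09850 (r = 0.84), and XERICO most like AT5G18590 (r = 0.91) and AT2G30990 (r = 0.84).

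Other genes of the pathway were looked up in lists, most of which the annotation used here does not name. Of 28 genes of abscisic acid receptors, phosphatases, kinases and bZIP factors, 15 of its synthesis and breakdown, and 30 drought effectors, 0 had a probe set of a single named gene, and these are not analysed here. Of 25 other cold regulon genes, 2 had one. COR15A, the paralog of COR15B, had a mean signal of 19.1, below the filter. STZ, a zinc finger repressor induced by cold and salt, had 527 and 515 with 7606596 at 3 h, 380 and 395 with 5929745 at 3 h, and 248 and 206 in untreated seedlings of 3 h. STZ rose by 1.15 ± 0.16 with 7606596 (limma, adjusted p = 0.00014) and by 0.74 ± 0.16 with 5929745 (adjusted p = 0.0257), in a gene list of 1 measured member, so no count is drawn from it. The second call was lost without 5929745 3 h replicate 1 (0.76, adjusted p = 0.105), 5929745 3 h replicate 2 (0.71, adjusted p = 0.203) or untreated 3 h replicate 2 (0.61, adjusted p = 0.142), with no filter (adjusted p = 0.0611) and with no variance trend (adjusted p = 0.0827). The difference between the compounds at 3 h was 0.41 ± 0.16 (adjusted p = 0.353). At 12 h STZ had 340 and 354 with 7606596, 246 and 338 with 5929745, and 239 and 261 in untreated seedlings, and neither compound passed (0.45 ± 0.16, adjusted p = 0.175, and 0.20 ± 0.16, adjusted p = 0.591).

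The families of ALDH7B4 and HIS1-3 were measured more fully. Of 12 other aldehyde dehydrogenases 7 were kept, and 0 were called in any of the 6 comparisons between compounds or with untreated seedlings of the same time, where 0.848% to 5.02% of all probe sets were. At 12 h against 0 h, 5 of the 7 (4 higher, 1 lower) were called in untreated seedlings, with 7606596 and with 5929745. Over all probe sets 35.1%, 28.7% and 29.5% were called. At 12 h against 3 h, 5 (3 higher, 2 lower) were called in untreated seedlings, beside 34.2% of all probe sets. In the same comparison 3 (2 higher, 1 lower) were called with 7606596, beside 26.5%, and 5 (4 higher, 1 lower) with 5929745, beside 25.4%. Against untreated seedlings of the same time, their median change was -0.10 and 0.0057 with 7606596 at 3 h and 12 h, and -0.09 and -0.020 with 5929745. The other 2 linker histones, HIS1.1 and HIS1.2, were both kept and 0 were called in those 6 comparisons. With 7606596 at 12 h HIS1.1 differed from untreated seedlings by 0.14 ± 0.11 (limma, adjusted p = 0.637) and HIS1.2 by -0.015 ± 0.10 (adjusted p = 0.966), beside the 0.58 ± 0.16 of HIS1-3.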

How the data were processed

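Total RNA of whole seedlings was labelled with biotin and hybridised to ATH1 arrays, per the labels' protocols. The deposited values are signal intensities made by the authors with MAS5, per the submitters' processing notes, with the version not given in the sources used here. MAS5 scales each array on its own, so shifts common to all genes are removed. Weak MAS5 signals are noisy. Detection calls were not used here. The 64 control probe sets were left out, and of the 22746 others those whose mean signal reached the 30th percentile (42.3) entered the tests, 15922 in all.

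Signals were fitted as log2(signal + 16) in R 4.3.3 with limma 3.58.1 (lmFit, eBayes with a variance trend), with 1 mean for each of 7 groups, 7 residual and 11.4 prior degrees of freedom. All 15 comparisons and 3 interactions were two-sided. P-values were adjusted by Benjamini-Hochberg over all kept probe sets. The log2 scale with an offset understates changes of dim genes, and the number of arrays limits the precision. Errors beside log2 changes are standard errors. Within groups, arrays correlated at r = 0.983 to 0.989, and 0 arrays were identical. The fit was tested on simulated data.

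The members, gene lists and comparisons were chosen with earlier results of these data known. Genes named beside the members were the 2 probe sets of a single gene most correlated with each member over the 14 arrays, with a mean signal of at least 168, and up to 4 called genes of each list with the smallest adjusted p in the 6 comparisons at matched times. COR27, HVA22C, DI19 and RD2 were added after the members' data had been seen, and the linker histones and aldehyde dehydrogenases were described as families. The alternatives were offsets of 1 and 64, no filter, no variance trend, quantile normalization, the replicate number as a block, and leaving out each of the 14 arrays.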

Additional observations from a re-analysis of the deposited data

How the results depend on the processing

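With 2 arrays a group, each call rests on a spread shared over all groups, and leaving out 1 array leaves its group with a single array that is assumed to vary like the rest. The comparisons with untreated seedlings of 3 h and 12 h cross the poly-A difference, and COR15B, the dimmest member, is the one most limited by signal over background. Over the 6 alternatives to offset, filter, variance, scale and replicate block, 730 of the members' values kept their direction and their side of the threshold. Of the others, 11 lost and 12 gained a call, and 3 changed sign. With 1 array left out, 1626 kept both, 35 lost and 32 gained a call, and 71 changed sign. Of all values that changed sign, those of other named genes included, 0 were called before or after.

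The number of members called moved as follows. For 7606596 at 12 h against untreated at 12 h it was 0 with no filter and 0 with no variance trend, against 1 as reported. With no variance trend it was 0 (1 as reported) for 7606596 at 3 h against 5929745 at 3 h, 1 (3 as reported) for untreated at 3 h against 0 h, 1 (2 as reported) for 7606596 at 12 h against 0 h and for 5929745 at 3 h against 0 h, 2 (1 as reported) for 5929745 at 12 h against 0 h, and 1 (3 as reported) for 7606596 at 12 h against 3 h. For untreated at 12 h against 0 h it was 2 with an offset of 64, 1 with no variance trend and 1 with quantile normalization, against 0 as reported. It was 2 with an offset of 64 (1 as reported) for untreated at 12 h against 3 h and 2 with quantile normalization (1 as reported) for 5929745 at 12 h against 3 h. Over all probe sets, calls for 7606596 against untreated numbered 471 with no variance trend and 799 as reported at 3 h, and 76 with no variance trend, 133 with no filter and 245 as reported at 12 h. For 5929745 they numbered 28, 75 and 183 at 3 h and 42, 107 and 223 at 12 h, and between the compounds 92, 91 and 146 at 3 h and 46, 65 and 135 at 12 h.

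With 1 array left out, the number of members called ran from 1 to 2 for 7606596 at 3 h against untreated, 0 to 2 at 12 h, 0 to 1 for 5929745 at 3 h and 0 to 1 at 12 h, and 0 to 1 between the compounds at both times. It ran from 1 to 3, 0 to 2 and 0 to 2 for untreated at 3 h against 0 h, 12 h against 0 h and 12 h against 3 h. Against 0 h it ran from 1 to 4 and 1 to 3 for 7606596 at 3 h and 12 h, and from 1 to 3 and 1 to 2 for 5929745. From 3 h to 12 h it ran from 0 to 3 with 7606596 and from 0 to 2 with 5929745. Calls over all probe sets also moved with 1 array left out. They ran from 252 to 931 and 62 to 310 for 7606596 at 3 h and 12 h against untreated, from 41 to 261 and 39 to 317 for 5929745, and from 65 to 184 and 28 to 188 between the compounds.

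The replicate numbers did not pair the arrays: over 21 pairs of groups the deviations of same-numbered arrays correlated at -0.20 to 0.12, with a median of 0.010 and 1 value above 0.1. With the replicate number as a block, the members called became 1 (0 without the block) for 5929745 at 12 h against untreated and for untreated at 12 h against 0 h, and 2 (1 without the block) for untreated at 12 h against 3 h and for 5929745 at 12 h against 3 h. The added call was ALDH7B4 for untreated at 12 h against 3 h (limma, adjusted p = 0.0493) and COR47 in the other cases, in the order given (adjusted p = 0.0432, 0.041 and 0.0498). The block moved none of the other 11 counts past 1.5 times.

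The 3 sign changes were COR15B with 5929745 at 12 h against untreated (-0.00040 with an offset of 64), COR15B with 7606596 at 3 h against 0 h (-0.027 with quantile normalization) and the DI21 interaction between the compounds (0.0016 with an offset of 64). Uncalled log2 changes that took the other sign on leaving out 1 array had these ranges. For 7606596 at 3 h against untreated at 3 h, COR15B -0.38 to 0.14, ALDH7B4 -0.16 to 0.11, XERICO -0.21 to 0.20, COR27 -0.22 to 0.18, HVA22C -0.28 to 0.052. For 5929745 at 3 h against untreated at 3 h, COR15B -0.24 to 0.46, XERICO -0.27 to 0.14, HVA22C -0.22 to 0.11. For 5929745 at 12 h against untreated at 12 h, LTI30 -0.047 to 0.46, COR15B -0.19 to 0.20, ALDH7B4 -0.27 to 0.48, DI21 -0.26 to 0.12, STZ -0.018 to 0.41, COR27 -0.032 to 0.094, RD2 -0.17 to 0.24. For 7606596 at 3 h against 5929745 at 3 h, COR15B -0.59 to 0.12, HIS1-3 -0.047 to 0.25, ALDH7B4 -0.087 to 0.18, XERICO -0.028 to 0.15, COR27 -0.017 to 0.38, HVA22C -0.16 to 0.039. For 7606596 at 12 h against 5929745 at 12 h, ALDH7B4 -0.18 to 0.57, XERICO -0.052 to 0.043, HVA22C -0.49 to 0.13, RD2 -0.016 to 0.39. For untreated at 3 h against untreated at 0 h, COR47 -0.041 to 0.37. For untreated at 12 h against untreated at 0 h, HIS1-3 -0.26 to 0.13, ALDH7B4 -0.011 to 0.21. For untreated at 12 h against untreated at 3 h, XERICO -0.27 to 0.13. For 7606596 at 3 h against untreated at 0 h, COR15B -0.24 to 0.27, HIS1-3 -0.18 to 0.22. For 7606596 at 12 h against untreated at 0 h, DI21 -0.064 to 0.26. For 5929745 at 3 h against untreated at 0 h, LTI30 -0.39 to 0.18, COR15B -0.11 to 0.60, HIS1-3 -0.28 to 0.12. For 5929745 at 12 h against untreated at 0 h, HIS1-3 -0.0032 to 0.39, ALDH7B4 -0.17 to 0.58. For 7606596 at 12 h against 7606596 at 3 h, ALDH7B4 -0.25 to 0.015, XERICO -0.099 to 0.080. For 5929745 at 12 h against 5929745 at 3 h, LTI30 -0.44 to 0.064, ALDH7B4 -0.64 to 0.11, XERICO -0.0085 to 0.12. The interaction of 7606596 against untreated, COR15B -0.40 to 0.12, DI21 -0.17 to 0.22, XERICO -0.14 to 0.26. The interaction of 5929745 against untreated, COR15B -0.46 to 0.25, HIS1-3 -0.11 to 0.18, ALDH7B4 -0.20 to 0.55, DI21 -0.16 to 0.22, XERICO -0.074 to 0.33. The interaction of 7606596 against 5929745, COR15B -0.39 to 0.32, HIS1-3 -0.0035 to 0.44, ALDH7B4 -0.23 to 0.52, DI21 -0.068 to 0.066, XERICO -0.15 to 0.024.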

Other observations

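A few further genes with a cold or desiccation name in the annotation were chosen after the members' values had been seen, and are given as values. RD2, a gene named for its response to desiccation, had 2109 and 2166 with 7606596 at 3 h, 1336 and 1364 with 5929745 at 3 h, and 1400 and 1358 in untreated seedlings of 3 h. Its highest signal over all arrays was 2863, above these. At 12 h its differences from untreated seedlings were 0.23 with 7606596 and 0.04 with 5929745, and 0.19 between the compounds, all uncalled. At 3 h its arrays with 7606596 lay above those of untreated seedlings, as in 22.8% of all probe sets. They also lay above those of 5929745, as in 18.8%. The untreated and 5929745 arrays overlapped each other. RD2 was higher with 7606596 than in untreated seedlings by 0.63 ± 0.14 (limma, adjusted p = 0.0137). It was higher than with 5929745 by 0.66 ± 0.14 (adjusted p = 0.0272). Each call was lost when any 1 of the 4 arrays compared was left out. Without 7606596 3 h replicates 1 and 2 the first difference was 0.65 and 0.61 (adjusted p = 0.0681 and 0.102), and without untreated 3 h replicates 1 and 2 it was 0.65 and 0.60 (adjusted p = 0.0685 and 0.0723). Without 7606596 3 h replicates 1 and 2 the second was 0.68 and 0.64 (adjusted p = 0.128 and 0.259), and without 5929745 3 h replicates 1 and 2 it was 0.64 and 0.67 (adjusted p = 0.2 and 0.16).

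COR27, a cold-regulated gene that also cycles with the day, had 400 and 531 with 7606596 at 3 h, 361 and 454 with 5929745 at 3 h, and 416 and 524 in untreated seedlings of 3 h. At 12 h it had 1999 and 1969 with 7606596, 1788 and 1740 with 5929745, and 1651 and 1804 in untreated seedlings. The arrays of 12 h all lay above those of 3 h, in each treatment. So did those of 33.4% of all probe sets with 7606596, 31.7% with 5929745 and 34.9% in untreated seedlings. DI19, a drought-induced zinc finger gene, and HVA22C, named after a barley gene induced by abscisic acid, were called in none of the 6 comparisons at matched times in limma, with differences from untreated seedlings of -0.33 to 0.33 and of -0.50 to -0.056. The -0.50 of HVA22C, with 7606596 at 12 h (adjusted p = 0.205), was -0.81 without 7606596 12 h replicate 2 (adjusted p = 0.0321) and -0.19 without replicate 1 of that group (adjusted p = 0.854).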
